A study of Mus musculus with 12 samples.

Results

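The macrophage and monocyte markers described here are 10 genes, Lyz2, Cd68, Adgre1, Csf1r, Cd14, Mrc1, Cd163, Itgam, Ccr2 and Trem2, of 19938 genes measured in biopsies of mouse colon tumors. They were taken by symbol from the probe sets that name a single gene, and each of the 10 is read by 1 probe set. Biopsies were taken by colonoscopy from living mice, and the latest and the earliest biopsy of 1 tumor per mouse were read on Affymetrix arrays, 12 arrays from 6 mice. All mice were F1 hybrids of SWR females and C57BL/6 males carrying Apc Min/+, a germline mutation in 1 copy of the Wnt pathway suppressor Apc. All had drunk 4% dextran sodium sulfate, which injures the colon lining, repeatedly around weaning. There was no group without the mutation, without the treatment or without a tumor. The late biopsy was read as intramucosal carcinoma, a cancer still inside the mucosa, in mice 2201, 3407 and 3413, while mice 1755, 1803 and 1805 had adenoma, which is benign. The labels give no pathology for the early tissue, so each early array takes the reading its tumor had at the end. Each pathology had 1 female and 2 male mice. Mice were 280.0 ± 82.5 days old at the late biopsy and 94.3 ± 11.8 days at the early one (SD, n = 6 each). At the late biopsy carcinoma mice were 227 ± 35.2 days old and adenoma mice 333 ± 86.4 days (SD, n = 3 each), so pathology and age go together in part.

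Blood monocytes leave the circulation with the help of the chemokine receptor CCR2 and the integrin CD11b, and mature in tissue into macrophages, which depend on signals through the CSF1 receptor. The colon lining holds a large macrophage population that is refilled from monocytes, takes up debris and microbes through scavenger receptors, and senses bacterial endotoxin through CD14. In tumors, macrophages can carry inflammatory, matrix-remodelling or lipid-handling programmes, of which TREM2 is a common marker. A biopsy mixes all cell types of the tumor, so fewer cells of a type and less RNA per cell cannot be told apart in these values. Values are the deposited intensities on a log2 scale, on which a difference of 1.00 is a doubling, and levels are compared for the same gene only, since probe sets differ in brightness.

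The arrays were put into 2 array groups by the submitters' own sample numbers, which bears on every comparison of late with early biopsies. The early arrays of mice 1755, 1803, 1805 and 2201 are numbered up to 255, and the other 8 arrays from 319 on. Those of mice 1755, 1803 and 1805 are numbered 155 to 157 and that of 2201 is 255, so the numbers alone do not fix the cut. Over the 50 probe sets with the lowest ID numbers, which are paired with no gene here, the mean was 6.80 to 6.94 on the later-numbered arrays and 7.08 to 7.19 on the first 4. On the early array of mouse 2201 it was 7.13. What the numbers stand for is not given in the labels. The late array of mouse 1805 had the lowest median correlation with the other arrays (0.964), against 0.975 to 0.987 for the other 11. Array medians lay between 7.62 and 7.80 log2.

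Over all 6 tumors, Ccr2, Itgam and Mrc1 had the largest late minus early differences of the 10 markers, 0.53 to 0.56 log2, but none of the 10 passed the test. The test was limma, a linear model fitted to all genes with mouse as a block, at an adjusted p under 0.05, which 0.0% of all genes passed. At an unadjusted p under 0.05, 3 of the 10 were higher late (Itgam, Ccr2 and Mrc1) and 0 lower, where 5.68% of all genes were higher and 9.06% lower. The difference was above 0 for 8 of the 10, with a median of 0.23 log2, beside 42.1% of all genes above 0 and a median of -0.02 over all genes. Without mouse 2201 it was above 0 for 6 of the 10, with a median of 0.08. Late exceeded early in 6 of 6 mice for 2 of the 10, Itgam and Trem2, and for 2.59% of all genes. In 5 or more mice it did so for 4 of the 10, with Mrc1 and Ccr2 added, and for 13.1% of all genes. For no member did all late biopsies lie above all early biopsies, a separation that 0.135% of all genes showed.

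**Figure D1:**
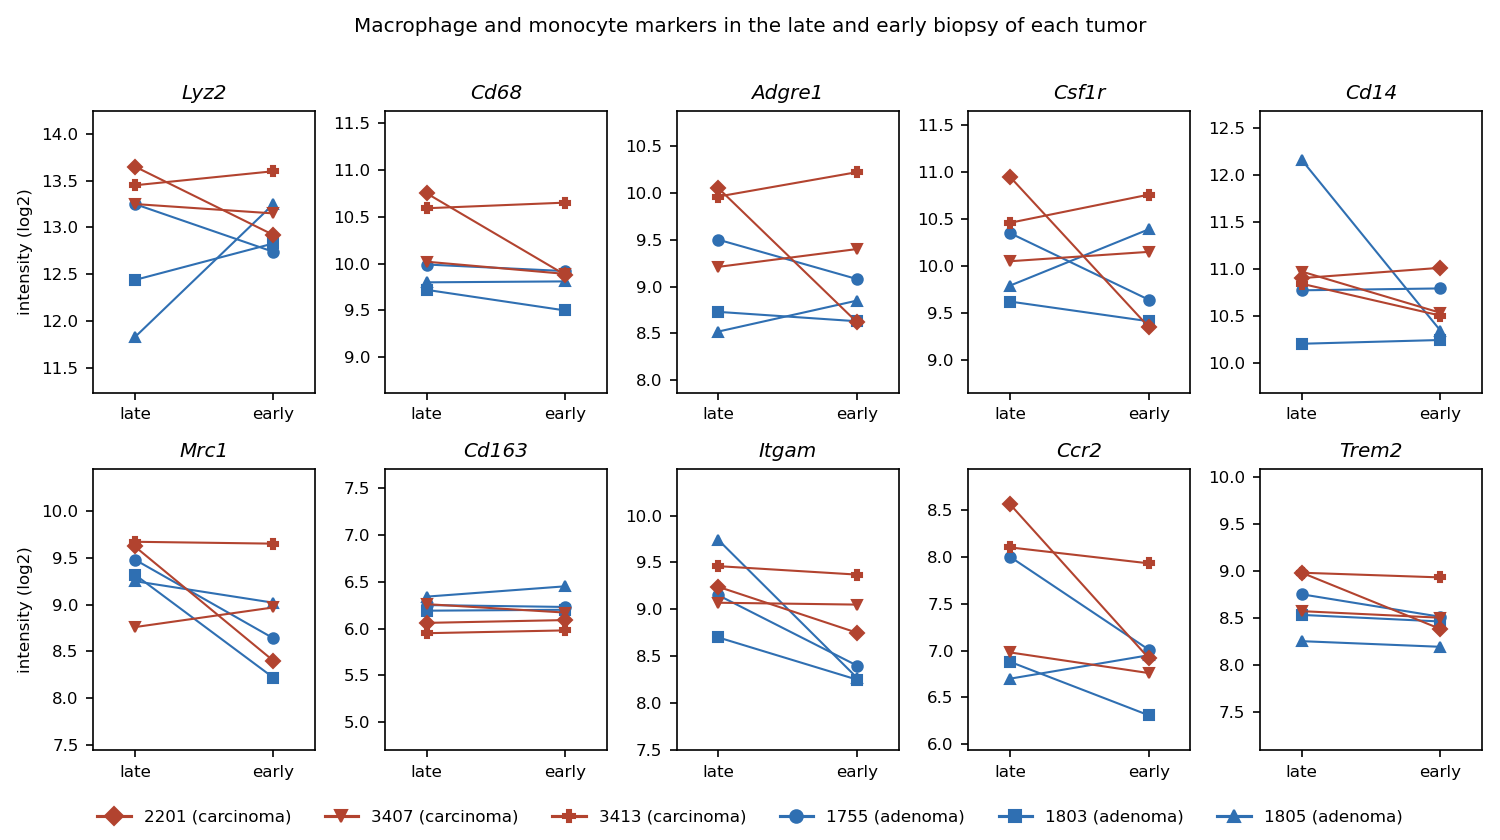
Intensity (log2) of each marker in the late biopsy (left) and the early biopsy (right) of each tumor. A line joins the biopsies of 1 mouse, red for tumors read as carcinoma and blue for adenoma, and each panel spans at least 3 log2 units. Lines of Itgam and Trem2 are higher late in all 6 mice, the Csf1r and Adgre1 lines run in both directions, and Cd163 stays between 5.95 and 6.45.

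Csf1r encodes the receptor for the growth factors CSF1 and IL-34 on which macrophages depend. Late biopsies had a lowest value of 9.62, a median of 10.20 and a highest value of 10.95 log2, and early biopsies 9.35, 9.90 and 10.76. The ranges overlap over most of their length. Late minus early was 1.60 in mouse 2201, 0.71 in 1755, 0.22 in 1803, -0.11 in 3407, -0.31 in 3413 and -0.61 in 1805. The early biopsy of mouse 2201 was the lowest of all 12 arrays and its late biopsy the highest. The fitted difference was 0.25 log2 (95% interval -0.37 to 0.88, limma adjusted p = 0.705), and without mouse 2201 it was -0.02.

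Adgre1 encodes the surface receptor that the standard antibody to mouse macrophages recognises. Its late values ran from 8.52 to 10.05 with a median of 9.35, and its early values from 8.62 to 10.22 with a median of 8.96. Mouse 2201 was 1.43 higher late, while mice 3407, 3413 and 1805 were 0.19, 0.26 and 0.32 lower in the late biopsy than in the early one. Its fitted difference was 0.20 (95% interval -0.32 to 0.72, limma adjusted p = 0.724), and without mouse 2201 it was -0.05.

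Cd68 encodes a lysosomal glycoprotein of phagocytes. Late biopsies had 9.72, 9.80, 9.99, 10.02, 10.59 and 10.75 log2, and early biopsies a range of 9.50 to 10.65 with a median of 9.89. Mouse 2201 was 0.86 higher late and the other 5 mice differed by -0.06 to 0.22. Both biopsies of mouse 3413, at 10.59 late and 10.65 early, lay with the late biopsy of mouse 2201 above the other 9 arrays. The fitted difference of 0.20 (95% interval -0.08 to 0.48, limma adjusted p = 0.475) was smaller than the spread of the changes between mice (SD 0.34, n = 6), and 0.07 without mouse 2201.

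Lyz2 encodes the lysozyme of macrophages and neutrophils, an enzyme that cuts bacterial cell walls. It had 11.83, 13.25 and 13.65 log2 as lowest, median and highest late value, and 12.74, 13.03 and 13.60 early. The low late values were those of adenoma mice 1805 (11.83, against 13.25 early) and 1803 (12.44, against 12.83 early). In the fit, late minus early was -0.10 (95% interval -0.70 to 0.50, limma adjusted p = 0.891), and 0.16 without mouse 1805. Lyz1, the paralog that Paneth cells make, has a closely similar sequence, and signal shared between their probe sets was not tested. Its late minus early change was -2.27 in mouse 1805, where that of Lyz2 was -1.42, but 1.64 in mouse 3413, where that of Lyz2 was -0.14.

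Of the genes of monocyte entry, Ccr2 encodes the receptor for the chemokine CCL2 that brings monocytes into tissue. Its late values had a lowest, median and highest of 6.70, 7.49 and 8.56 log2, and its early values 6.31, 6.93 and 7.93. It was higher late in 5 of 6 mice, by 1.65 in 2201, 1.00 in 1755, 0.57 in 1803, 0.22 in 3407 and 0.17 in 3413, and 0.25 lower late in mouse 1805. The fitted difference was 0.56 (95% interval 0.03 to 1.09), the largest of the 10 markers, but did not pass (limma adjusted p = 0.322). Without mouse 2201 it was 0.34.

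Itgam encodes CD11b, the integrin alpha chain of monocytes, macrophages and neutrophils, which mediates adhesion and uptake of complement-coated particles. It had 8.70, 9.19 and 9.74 log2 as lowest, median and highest late value, against 8.25, 8.58 and 9.37 early. Every tumor was higher late, by 1.47 in mouse 1805, 0.75 in 1755, 0.48 in 2201, 0.45 in 1803, 0.10 in 3413 and 0.02 in 3407. The fitted difference was 0.55 (SE 0.180, 95% interval 0.13 to 0.96), and the adjusted p was the lowest of the 10 in this comparison (limma adjusted p = 0.274). Without mouse 1805 it was 0.36. Late and early ranges overlapped for Ccr2 and Itgam alike. The partner chain of CD11b, Itgb2, was also higher late in 6 of 6 mice, as 2.59% of all genes were, with a fitted difference of 0.44 (SE 0.123, limma adjusted p = 0.253).

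Cd14 encodes the coreceptor that hands endotoxin to TLR4. Late values were 10.20, 10.87 and 12.16 log2 at the lowest, median and highest, and early values 10.24, 10.51 and 11.01. The late biopsy of mouse 1805 stood apart, at 12.16 against 10.34 early, a change of 1.82. The other changes were 0.44 in mouse 3407, 0.34 in 3413, -0.02 in 1755, -0.04 in 1803 and -0.11 in 2201. Late minus early was fitted at 0.41 (95% interval -0.17 to 0.98, limma adjusted p = 0.479), and 0.12 without mouse 1805.

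Among receptors of tissue macrophages, Mrc1 encodes the mannose receptor CD206, which takes up glycoproteins. Its lowest, median and highest were 8.76, 9.40 and 9.67 log2 late and 8.22, 8.81 and 9.65 early. It was higher late by 1.23 in mouse 2201, 1.09 in 1803, 0.83 in 1755, 0.22 in 1805 and 0.02 in 3413, and 0.21 lower late in 3407. For Mrc1 the fitted difference was 0.53 (95% interval 0.06 to 1.00, limma adjusted p = 0.303). The scavenger receptor gene Stab1 and the hyaluronan receptor gene Lyve1, which endothelial cells also express, had fitted differences of 0.58 (limma adjusted p = 0.309) and 0.62 (limma adjusted p = 0.249), each higher late in 5 of 6 mice. The mean of 6 endothelial markers was higher late by 1.26 in mouse 2201, 1.53 in 1803, 1.27 in 1755, 1.26 in 1805 and 0.12 in 3407, and -0.14 in 3413, and its part in these values was not tested.

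Trem2 encodes a lipid-sensing receptor that signals through the adapter TYROBP. Its late values ran from 8.25 to 8.98 log2 (median 8.66) and its early values from 8.19 to 8.93 (median 8.48). All 6 tumors were higher late, but 4 of them by only 0.05 to 0.07, with 0.24 in mouse 1755 and 0.60 in 2201. The fitted difference was 0.18 (95% interval -0.01 to 0.38, limma adjusted p = 0.360), and 0.10 without mouse 2201. Tyrobp was higher late in 5 of 6 mice, with a fitted difference of 0.37 (SE 0.116, limma adjusted p = 0.270).

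Cd163 encodes the scavenger receptor for haptoglobin bound to hemoglobin, a marker of resident macrophages. It was the dimmest of the 10 probe sets, its mean of 6.18 log2 lying below the 25th percentile of genes. Late values ran from 5.95 to 6.34 and early values from 5.98 to 6.45, with changes between -0.11 and 0.09. Its fitted late minus early value was -0.01 (95% interval -0.12 to 0.10, limma adjusted p = 0.952). Without detection calls for these arrays, a low steady level cannot be told apart from background.

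The promoters of the 4 markers that were higher late in 5 or more mice are shown because PU.1, the lineage factor encoded by Spi1, is known to act through purine-rich sites at myeloid promoters. The sequences are RefSeq, build GRCm38.p6, the 250 bases before an annotated start site, in the direction of the gene, with GAGGAA or its reverse complement TTCCTC, the core letters of such sites, in capitals. Of the 10 markers, 7 were searched. Adgre1 had no promoter entry under its symbol. Csf1r and Cd14 were left out of the search, so the shares of markers with a match do not cover them.
Itgam, chr7:128062390-128062639, plus strand: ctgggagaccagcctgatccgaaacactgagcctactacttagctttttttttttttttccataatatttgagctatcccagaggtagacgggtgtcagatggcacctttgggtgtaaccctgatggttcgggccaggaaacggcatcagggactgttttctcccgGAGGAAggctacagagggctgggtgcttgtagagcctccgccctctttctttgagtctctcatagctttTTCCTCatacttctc
Mrc1, chr2:14229164-14229413, plus strand: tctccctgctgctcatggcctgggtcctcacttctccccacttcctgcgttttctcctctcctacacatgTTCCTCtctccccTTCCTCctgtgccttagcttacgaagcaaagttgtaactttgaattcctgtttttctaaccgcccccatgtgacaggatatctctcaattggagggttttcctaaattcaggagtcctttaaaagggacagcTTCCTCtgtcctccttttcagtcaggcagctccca
Trem2, chr17:48346151-48346400, plus strand: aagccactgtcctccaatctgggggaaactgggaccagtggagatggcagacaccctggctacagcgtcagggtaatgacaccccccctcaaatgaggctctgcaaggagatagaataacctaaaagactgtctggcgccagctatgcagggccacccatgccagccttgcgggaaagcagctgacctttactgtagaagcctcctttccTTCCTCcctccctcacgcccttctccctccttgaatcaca
Ccr2, chr9:124101933-124102182, plus strand: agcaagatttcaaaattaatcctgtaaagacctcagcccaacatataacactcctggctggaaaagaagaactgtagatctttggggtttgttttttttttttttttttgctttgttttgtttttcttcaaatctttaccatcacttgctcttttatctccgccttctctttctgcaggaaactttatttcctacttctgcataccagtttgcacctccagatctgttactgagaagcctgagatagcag
The 6 letters were found in both directions in Itgam, 84 and 15 bases before the start, on the reverse strand in Mrc1, 180, 167 and 35 bases before it, and on the reverse strand in Trem2, 40 bases before it. They were not found in this window of Ccr2. That window begins at 124101933, past the first annotated base of the gene at 124101918, so it precedes a later start site. The windows of Itgam, Mrc1 and Trem2 lie before the first annotated base, so the lack of a match in Ccr2 is not like for like. Among the 7 markers searched, 4 held a match (Cd68 with 1 on the forward strand), and 25.9% of 27025 genes did. The longer GAGGAAGT, which contains the same 6 letters, was found in 0 of the 7 and in 2.79% of all genes. The letters TGANTCA, a loose form of the AP-1 site with any base at N, were also sought on both strands. They were found in 2 of the 7, Cd68 and Trem2, and in 7.82% of all genes. The Trem2 match reads TGAATCA, with A where the usual AP-1 site has G or C. Spi1 itself was higher late in 5 of 6 mice, with a fitted difference of 0.44 (SE 0.149, limma adjusted p = 0.274). Late exceeded early in 5 or more mice for 13.1% of all genes. Whether PU.1 acts at these promoters in the tumors was not tested.

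The markers did not vary alike over the tumors. Across the changes of the 6 mice, Csf1r, Ccr2, Adgre1, Trem2 and Cd68 went together, with Pearson r between 0.83 and 1.00 for their 10 pairs. Mrc1 followed them at 0.66 to 0.79 and Lyz2 at 0.56 to 0.84. Itgam and Cd14 went together at 0.68, and against Csf1r they were at -0.16 and -0.71. Over the levels of the 12 arrays, Adgre1 and Cd68 were at 0.92 and Adgre1 and Csf1r at 0.87, while Cd14 was between -0.46 and 0.12 with the other members except Itgam (0.66) and Cd163 (0.14). These are descriptions over 6 mice and 12 arrays, in which the pairs share a mouse and all genes share the array, and the changes of mouse 2201 weigh on the first set.

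**Figure D2:**
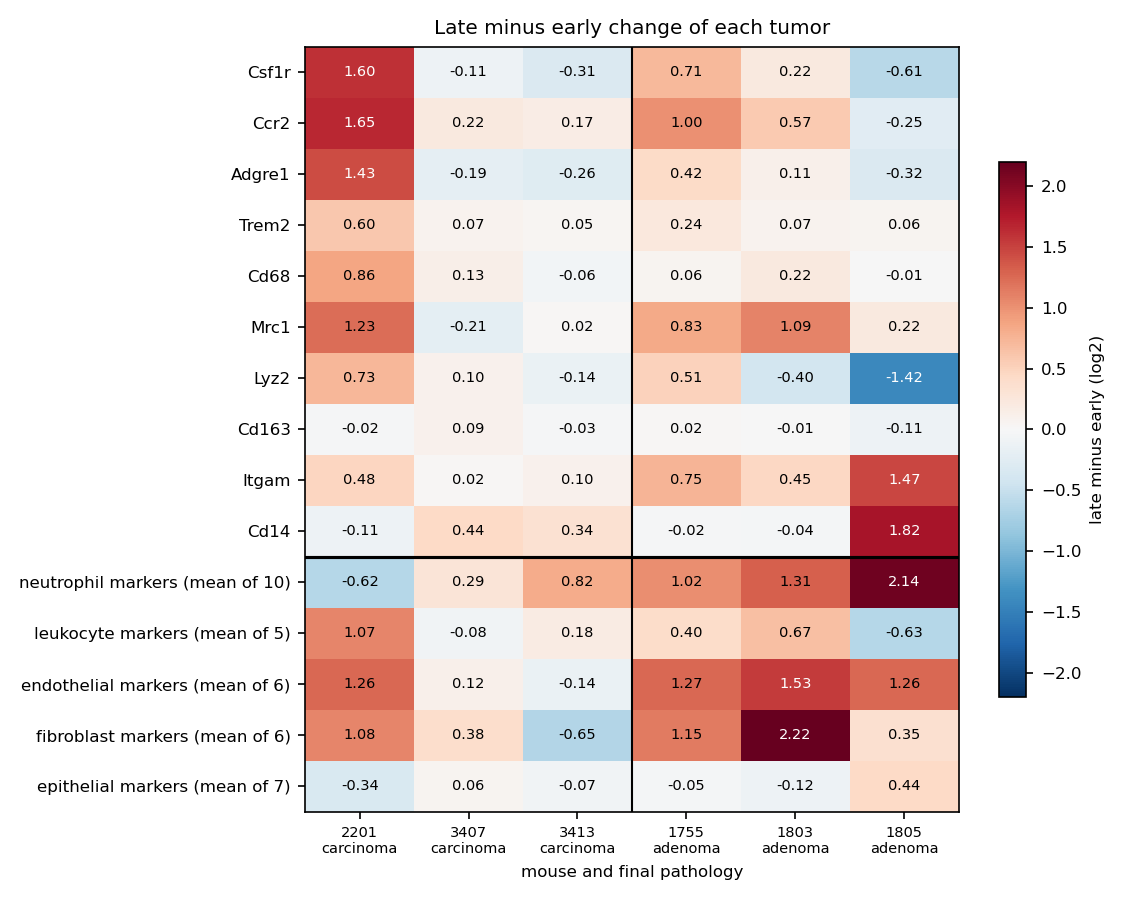
Late minus early change (log2) of each marker and of the mean of 5 lists of cell type markers, one column per mouse, carcinoma tumors left and adenoma tumors right. The upper 7 rows are highest in mouse 2201, and Itgam and Cd14 are highest in mouse 1805, where the neutrophil mean is also highest at 2.14.

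Tumor 2201 had the highest median change of the 6: 8 of 10 markers were higher in its late biopsy, with a median change of 0.80, although only 35.1% of all genes were. Its late biopsy was the highest of the 12 arrays for Lyz2, Cd68, Csf1r and Ccr2. Its 5 markers of all leukocytes were higher by a mean of 1.07, endothelial markers by 1.26 and fibroblast markers by 1.08, its neutrophil markers were lower by 0.62 and its epithelial markers lower by 0.34 in the late biopsy. Tumor 1755 followed with 9 of 10 markers higher and a median of 0.46. In mouse 1803 the median was 0.16, in 3407 0.08, in 3413 -0.00 and in 1805 -0.06. In mouse 1805, 4 markers were higher late and 6 lower, with the widest span of any tumor, from -1.42 for Lyz2 to 1.82 for Cd14. Its leukocyte mean was lower by 0.63 in the late biopsy, and the mean of its 2 erythroid markers was higher by 4.03. What part the mix of cell types has in these values was not tested.

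Itgam and Cd14 are also made by neutrophils, and neutrophil markers are given beside them. Of the 10 neutrophil markers, 9 had a difference above 0 late over all tumors, with a median of 0.90, 6 of them higher at an unadjusted p under 0.05 and 0 past the adjusted threshold. Of all genes, 42.1% were above 0 and 5.68% were higher at that p. Their mean level ran from 8.54 to 10.36 log2 in late biopsies and from 7.76 to 9.16 in early ones. None is at 0 in values of this kind, which have no true zero. The mean neutrophil change was 2.14 in mouse 1805, 1.31 in 1803, 1.02 in 1755, 0.82 in 3413, 0.29 in 3407 and -0.62 in 2201. Over the 12 arrays, the neutrophil mean had r = 0.78 with Cd14 and 0.74 with Itgam, and between -0.12 and 0.04 with Adgre1, Trem2, Csf1r, Cd68 and Ccr2. Over the changes of the 6 mice it was 0.67 with Cd14 and 0.65 with Itgam, and between -0.76 and -0.73 with those 5. Changes of Cd14 also had r = 0.93 with the epithelial mean and -0.91 with the dendritic cell mean. Those of Itgam had 0.63 with the epithelial mean and 0.65 with the endothelial mean. The part of any of these cell types in the Itgam and Cd14 values was not tested. The monocyte and neutrophil receptor Trem1 had a change of 3.19 in mouse 1805 and -0.79 in 2201, where its relative Trem2 had 0.06 and 0.60. Dendritic cell markers, from cells that share several of these genes, were above 0 in 6 of 8 (median 0.09), T cell markers in 5 of 6 (median 0.12), and epithelial markers in 3 of 7 (median -0.01). Endothelial and fibroblast markers were above 0 in 6 of 6 each (medians 0.93 and 0.79), with 5 and 4 at an unadjusted p under 0.05, and mast cell markers in 1 of 6 (median -1.06).

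**Figure D3:**
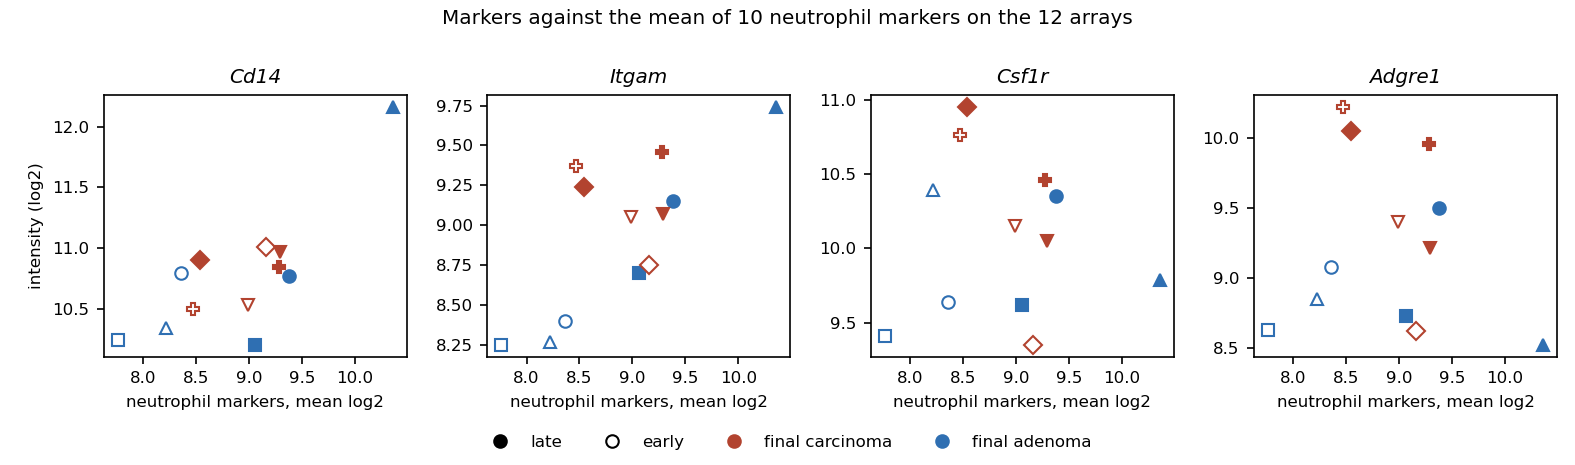
Intensity (log2) of Cd14, Itgam, Csf1r and Adgre1 against the mean log2 intensity of 10 neutrophil markers on the 12 arrays. Filled symbols are late and open symbols early biopsies, red carcinoma and blue adenoma, with the same symbol for both biopsies of a mouse. The late biopsy of mouse 1805 is the point at 10.36 and has the highest Cd14 and Itgam and the lowest Adgre1.

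The array groups coincide with much of the late minus early contrast. The 4 pairs that cross them (mice 2201, 1755, 1803 and 1805) had mean changes of 0.84 ± 0.444 for Mrc1, 0.79 ± 0.476 for Itgam, 0.74 ± 0.794 for Ccr2, 0.48 ± 0.924 for Csf1r and 0.41 ± 0.744 for Adgre1 (SD, n = 4). The 2 pairs within 1 array group (mice 3407 and 3413) had -0.09 ± 0.164, 0.06 ± 0.0536, 0.19 ± 0.0355, -0.21 ± 0.142 and -0.23 ± 0.0529 for the same genes (SD, n = 2). Cd14 was at 0.41 ± 0.939 across and 0.39 ± 0.0725 within. The within-group pairs are both carcinoma. They also had the earliest late biopsies, at 215 days in mouse 3407 and 200 days in 3413, against 234 to 395 days in the 4 pairs that cross. Array group, pathology and the time between biopsies therefore cannot be fully told apart in these changes.

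By final pathology, the question was whether the change from early to late differed between tumors that ended as carcinoma and those that ended as adenoma. In the carcinoma tumors 10 of 10 fitted changes were above 0, with a median of 0.28, where 39.8% of all genes were. Without mouse 2201 this was 6 of 10, with a median of 0.03, and Adgre1 (-0.23), Csf1r (-0.21), Mrc1 (-0.09) and Lyz2 (-0.02) were below 0. In the adenoma tumors 8 of 10 were above 0, with a median of 0.12, where 47.2% of all genes were. Without mouse 1755 this was 6 of 10, with a median of 0.09, and without mouse 1805 it was 9 of 10, with a median of 0.21. All 3 carcinoma tumors were higher late for Itgam, Ccr2 and Trem2 (9.73% of all genes), and all 3 adenoma tumors for Itgam, Mrc1 and Trem2 (17.0% of all genes). None of the 10 passed in either, where 0.0% of all genes did in carcinoma and 0.125% in adenoma tumors. The nearest was Itgam in the adenoma tumors, at 0.89 (SE 0.194, limma adjusted p = 0.109), with 9.20 ± 0.521 log2 late and 8.30 ± 0.0819 early (SD, n = 3 each). Without mouse 1805 it was 0.60, and with the array group as a term 0.47 (limma adjusted p = 0.868). In the carcinoma tumors Itgam differed by 0.20 (95% interval -0.26 to 0.66), with 9.26 ± 0.196 late and 9.06 ± 0.306 early (SD, n = 3 each). The difference of these changes, carcinoma minus adenoma, was -0.69 (95% interval -1.35 to -0.04), which did not pass (limma adjusted p = 0.706, 0.0% of all genes passing) and was -0.40 without mouse 1805 and -0.41 with the array group as a term. Mrc1 in the adenoma tumors was at 0.72 (SE 0.288, limma adjusted p = 0.261), and at -0.60 with the array group as a term. All 3 adenoma pairs cross the array groups. At an unadjusted p under 0.05, Itgam and Mrc1 were higher late in the adenoma tumors and 0 lower, as 7.38% and 10.7% of all genes were, and in the carcinoma tumors 0 were higher and 0 lower, as 1.7% and 2.61% were. For the difference of changes Itgam alone was below 0 and 0 above at that p, as 3.37% and 3.68% of all genes were.

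Late carcinoma biopsies had more signal than late adenoma biopsies for 8 of the 10 markers, with a median difference of 0.45 log2, where 54.2% of all genes were higher, with a median of 0.02. Without mouse 2201 the count was 7 of 10 and the median 0.30. Markers of other cell types differed beside them. Epithelial markers were higher in carcinoma in 0 of 7 (median -0.22, 4 lower at an unadjusted p under 0.05), with a mean level of 12.19 to 12.37 in late carcinomas and 12.36 to 12.96 in late adenomas. T cell markers were higher in 6 of 6 (median 0.45), mast cell markers in 6 of 6 (median 0.72), leukocyte markers in 4 of 5 (median 0.26) and neutrophil markers in 1 of 10 (median -0.61), none past the adjusted threshold. Their part in the marker values was not tested. All 6 of these arrays lie in the same array group. None of the 10 passed (0.0% of all genes), and 2 had an unadjusted p under 0.05, Lyz2 and Cd68, both higher in carcinoma, as 6.74% of all genes were, and 0 lower, as 5.0% were. Lyz2 had 13.25, 13.45 and 13.65 log2 in late carcinomas, against 11.83, 12.44 and 13.25 in late adenomas. The groups touch at 13.25, and the difference was 0.95 (95% interval 0.18 to 1.71, limma adjusted p = 0.406), and 0.61 without mouse 1805. Cd68 had 10.02, 10.59 and 10.75 in late carcinomas, against 9.72, 9.80 and 9.99 in late adenomas. It was the only one of the 10 whose groups did not overlap, which 8.77% of all genes showed in that direction, and the difference was 0.61 (95% interval 0.10 to 1.13, limma adjusted p = 0.409).

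Adgre1 had 9.74 ± 0.462 in late carcinomas and 8.92 ± 0.513 in late adenomas (SD, n = 3 each). Csf1r had 10.48 ± 0.453 in late carcinomas and 9.92 ± 0.380 in late adenomas. Ccr2 had 7.88 ± 0.815 in late carcinomas and 7.20 ± 0.705 in late adenomas, and Trem2 had 8.84 ± 0.237 in late carcinomas and 8.51 ± 0.253 in late adenomas. In each of these 4 the groups overlapped. Without mouse 2201 the difference was 0.34 for Ccr2, against 0.69 with it, and 0.33 for Csf1r, against 0.565 with it. Without mouse 1805 it was 0.20 for Trem2, against 0.33 with it. Mrc1 was nearly level, at 9.35 ± 0.513 in late carcinomas and 9.35 ± 0.117 in late adenomas, with an interval of -0.75 to 0.76 that leaves room for either direction. The growth factor gene Csf1, for a ligand of Csf1r, was higher in late carcinomas by 0.95 (9.85 ± 0.268 in carcinoma and 8.90 ± 0.309 in adenoma, SD, n = 3 each), and did not pass either (limma adjusted p = 0.401). Il34, for the other ligand, was at -0.25 (limma adjusted p = 0.784). In early biopsies Csf1 was also higher in the tumors that ended as carcinoma, by 0.60 (limma adjusted p = 0.292).

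Between early biopsies of tumors with different final pathology, Itgam had the largest difference of the 10 markers. It had 8.75, 9.05 and 9.37 log2 in early biopsies of tumors that ended as carcinoma, against 8.25, 8.27 and 8.40 in those that ended as adenoma. The groups did not overlap, as for 10.7% of all genes in that direction, and the difference was 0.75 (95% interval 0.23 to 1.28, limma adjusted p = 0.298, 0.0% of all genes passing), and 0.46 with the array group as a term. Cd163 was the other one without overlap, with 5.98, 6.09 and 6.17 in the carcinoma-bound tumors and 6.20, 6.23 and 6.45 in the adenoma-bound tumors, as for 7.31% of all genes in the lower direction. Fitted differences were above 0 for 9 of the 10, with a median of 0.33, where 60.1% of all genes were above 0, with a median of 0.04. Without mouse 3413 they were above 0 for 8 of the 10, with a median of 0.09. That mouse was 117 days old at its early biopsy and the other mice 86 to 95 days. Without mouse 2201 the median was 0.56, but final pathology and array group then coincide fully in the early biopsies. Of the 10, 1, Itgam, had an unadjusted p under 0.05 with a higher level, as 7.06% of all genes did, and 0 a lower one, as 4.9% did. In the first array group the only carcinoma-bound array is that of mouse 2201, with Itgam at 8.75 and Cd163 at 6.09. That these lie outside the adenoma-bound values follows from the lack of overlap and is no separate check of the array group. The second array group holds no early adenoma-bound array. The neutrophil mean was 8.47 to 9.16 in carcinoma-bound and 7.76 to 8.36 in adenoma-bound early biopsies. Endothelial markers were higher in the carcinoma-bound early biopsies in 6 of 6 (median 0.84, 4 at an unadjusted p under 0.05), with a mean level of 9.59 ± 0.599, against 8.78 ± 0.268 in the adenoma-bound ones (SD, n = 3 each). Fibroblast markers were higher in 6 of 6 (median 0.90, 3 at that p), with a mean level of 10.99 ± 0.813 in the carcinoma-bound and 10.05 ± 0.624 in the adenoma-bound ones. Over the 12 arrays Itgam had r = 0.85 with the endothelial mean and 0.66 with the fibroblast mean. The part of these cell types in the Itgam values was not tested.

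**Figure D4:**
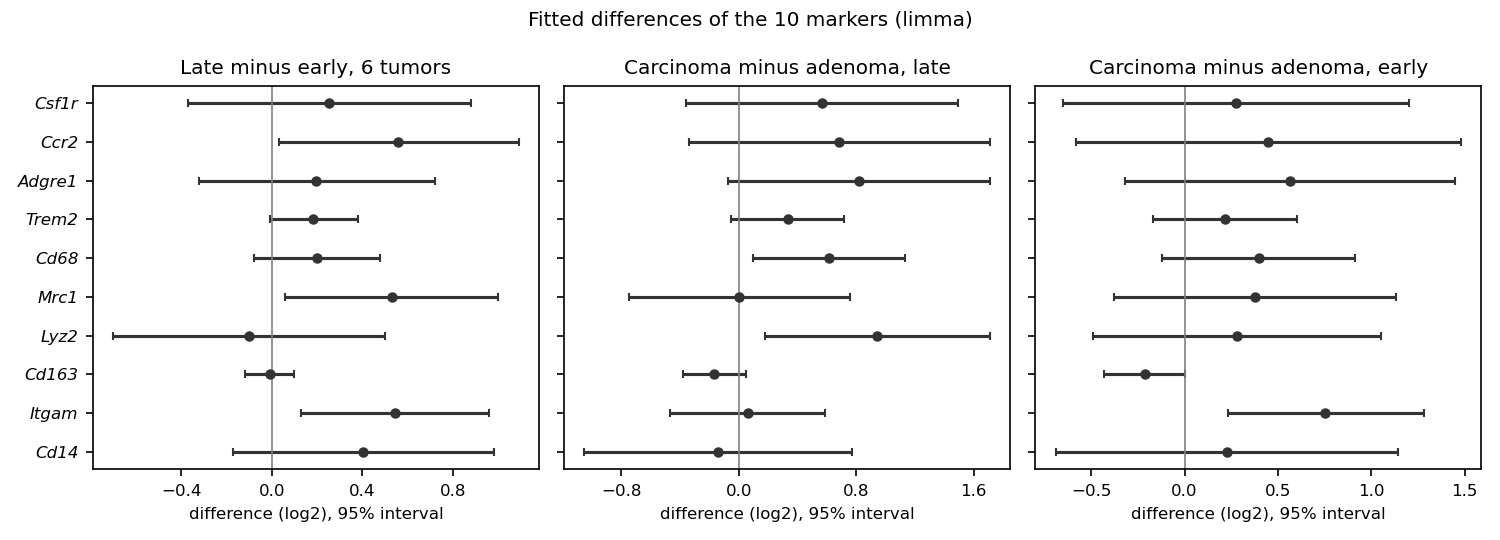
Fitted differences (log2) of the 10 markers with 95% intervals from limma for late minus early over 6 tumors, carcinoma minus adenoma in late biopsies, and carcinoma minus adenoma in early biopsies. Intervals of Itgam, Ccr2 and Mrc1 lie above 0 in the first panel, those of Lyz2 and Cd68 in the second and that of Itgam in the third, each before adjustment over all genes.

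Genes around the markers were read from lists of ligands, chemokines, regulators and macrophage states, none of whose measured members passed over all tumors. Beside the counts of these lists, 42.1% of all genes were above 0 late, with a median of -0.02. At an unadjusted p under 0.05, 5.68% of all genes were higher late and 9.06% lower. Among ligands of the CSF1 receptor and the growth factor gene Csf2, 2 of 3 were above 0 late with a median of 0.035. Monocyte chemokines had 7 of 8 above 0 (median 0.18), with Ccl2 at 0.25 and Ccl4 at 0.51, and Ccl4 had 2.45 in mouse 1805 and -0.21 to 0.59 in the other 5. Of monocyte genes 5 of 8 were above 0 (median 0.105), and 2 were lower at an unadjusted p under 0.05, Plac8 at -0.56 and the nuclear receptor Nr4a1 at -0.325. Of lineage transcription factors 6 of 7 were above 0 (median 0.16), of which Spi1 was higher and Id3, at -0.32, lower at that p.

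Genes of resident macrophages were above 0 in 9 of 12 (median 0.185), 3 of them at an unadjusted p under 0.05, Lyve1, Stab1 and Pf4. The complement chains C1qa, C1qb and C1qc, which macrophages make, had late minus early changes of 1.30, 1.35 and 1.85 in mouse 2201 and -1.09, -1.12 and -0.98 in mouse 1805. Lipid-associated macrophage genes were above 0 in 4 of 10 (median -0.14). Apoe, a lipid carrier, was at 0.51, and the lysosomal protease Ctsd, at -0.24, and the tetraspanin Cd9, at -0.26, were lower at that p. Genes of inflammatory activation were above 0 in 8 of 9 (median 0.26), and the cytokine Il1b had 2.60 in mouse 1805 and -0.55 in 2201. Genes of alternative activation were above 0 in 6 of 8 (median 0.22), and the arginine-degrading enzyme Arg1 had 2.97 in mouse 1805 and -0.23 in 2201. Of the endotoxin receptor genes, partners of Cd14, 5 of 8 were above 0 (median 0.095). The adapter gene Myd88 was higher late in 6 of 6 mice, as 2.59% of all genes were, at 0.23 (SE 0.0604, limma adjusted p = 0.240). The adapter gene Ticam2 was at -0.29 (SE 0.0650, limma adjusted p = 0.221).

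Of the other uptake receptors, 5 of 9 were above 0 (median 0.10) and 4 at an unadjusted p under 0.05. The largest was the inhibitory Fc receptor Fcgr2b at 0.73 (SE 0.184, limma adjusted p = 0.235). It was higher late in 6 of 6 mice, as 2.59% of all genes were, and by 1.63 in mouse 2201. TREM family genes and adapters were above 0 in 6 of 7 (median 0.32). The genes most like the mean level of the 10 markers over the 12 arrays were Hpse2 (r = 0.963), the endosomal RNA sensor Tlr8 (0.956), the macrophage pore-forming protein gene Mpeg1 (0.947), Klhl33 (0.939), the interferon receptor chain Ifnar2 (0.928) and C1s1 (0.928). Taken one by one, Csf1r was most like Pld4 (0.966), Adgre1 most like Mpeg1 (0.950), Cd68 most like Ifnar2 (0.959), Lyz2 most like C1qb (0.899) and Mrc1 most like Adap2 (0.972). Ccr2 was most like C1s2 (0.957), Itgam most like Cds2 (0.946), Trem2 most like Tbc1d5 (0.939) and Cd14 most like Ano4 (0.931), while Cd163 was most like ccdc198 (0.976). The genes most like the mean are the 6 highest outside the 10 markers, and each gene named for a single marker is the highest of all other genes measured. All of these r values describe these 12 arrays only.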

How the data were processed

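The 12 arrays held 35557 probe sets, of which 21789 name 1 gene symbol, 1621 several and 12147 none in the platform annotation. The authors deposited 1 processed value per probe set and array, read here as log2 intensity from its range and even array medians. How they corrected, normalized and summarised the signals is not stated in the labels. RNA from biopsies was amplified and labelled with a whole-transcript kit, per the labels' protocols.

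Of several probe sets for 1 gene, the brightest on average was kept, which gave 19938 genes, with no further scaling. Late and early biopsies were compared in limma 3.58.1 (R 4.3.3) with mouse as a block, the changes by pathology in 1 fit, and carcinoma with adenoma in a fit of 4 groups with mouse as a random block (consensus correlation 0.286). P-values were adjusted by Benjamini-Hochberg over all genes, at a threshold of 0.05, and intervals are 95% and unadjusted. Only the fit of late minus early over all tumors was tested on simulated data, which held no array group effect. Biopsies of a number share a mouse and a tumor. The deviations of the pairs from the mean of their time point, with pathology not taken out, correlated at 0.110 to 0.527. The mouse is the replicate, and the number of arrays limits the precision.

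The markers and gene lists were chosen with earlier results of these data known. Named besides the 10 markers were up to 3 genes of each list with the smallest unadjusted p over all tumors, the 6 genes most like the markers' mean and the gene most like each marker. The complement chains C1qa, C1qb and C1qc were named after their values were seen. Alternatives were no replicate block, the array group as a term, quantile normalization, centring, a filter on dim genes, the mean of all probe sets, a trended prior and leaving out each mouse.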

Additional observations from a re-analysis of the deposited data

Results flagged for a closer look

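In 4 of the 30 groups of 6 values tested, a single biopsy or change stood far from the others by Dixon's test, and chance gives about 1 in 20 groups. The changes are computed from the late and early values, and several markers vary together, so the groups are not independent. The count can therefore not be set against that rate. The early Cd68 level of mouse 3413 was 10.65 log2, above the other early biopsies, which lay between 9.50 and 9.92. The late minus early change of Cd68 was 0.86 in mouse 2201, against -0.06 to 0.22 in the other 5. The change of Trem2 was 0.60 in the same mouse, against 0.05 to 0.24. The change of Cd14 was 1.82 in mouse 1805, against -0.11 to 0.44 in the others. No cause of these values was tested.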

How the results depend on the processing

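None of the 10 markers passed the adjusted threshold in limma in any of the 6 comparisons under any of the alternatives run, with 774 values in all and a smallest adjusted p of 0.103, against 0.109 in the reported fits. The sign differed from the reported one in 55 of the 774, of which 22 came with the array group as a term, 12 without mouse 2201 and 10 without mouse 1805. With the array group as a term, late minus early over all tumors rests on the 2 pairs within an array group and was -0.226 for Adgre1, -0.208 for Csf1r, -0.092 for Mrc1 and 0.033 for Cd163. In the adenoma tumors, whose pairs all cross the array groups, that term rests on mouse 2201, the 1 carcinoma pair that crosses them, and Mrc1 was at -0.60. Quantile normalization gave 0.006 for Cd163. Leaving out each mouse in turn gave -0.269 to 0.16 for Lyz2, -0.049 to 0.301 for Adgre1, -0.019 to 0.423 for Csf1r and -0.029 to 0.011 for Cd163 over all tumors. Without the replicate block, 0 markers passed and Itgam in the adenoma tumors was at 0.892 (limma adjusted p = 0.164). The filter on dim genes left out Cd163. Genes called in the adenoma tumors numbered 25 as reported, 2 without the block, 0 with the array group, 57 with centring, 13 with the filter on dim genes and 0 to 78 without 1 mouse. Without mouse 1803, 395 genes were called between late carcinomas and adenomas and 67 between the early ones, against 0 as reported. With arrays centred on their medians, 729 genes were higher and 1267 lower in late carcinomas at an unadjusted p under 0.05, against 1344 and 997 as reported, and 899 and 1101 in early ones, against 1407 and 977. With 3 tumors a pathology, the number of arrays limits what can be told apart, and the cause of these shifts was not tested.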
